A study of Drosophila melanogaster with 6 samples.

Results

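Of the 984 reproducible Ey peaks of this DamID-seq series, 600 had 1 bp or more in common with a peak of the Su(H) list, where 611 of the 972 reproducible peaks were their partners. These shared peaks are 61.0% of the Ey list and 62.9% of the Su(H) list. They were chosen by that overlap of the Ey and Su(H) peaks called over Dam alone, so the counts are the outcome of the choice and no test was made on them. The overlaps formed 620 pairs of an Ey peak with a Su(H) peak, and the stretch that both peaks of a pair cover is called a shared region here.

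Eyeless (Ey), a homolog of Pax6, is one of the temporal transcription factors that medulla neuroblasts of the fly optic lobe express in turn as they age. Su(H) is the DNA-binding protein of the Notch pathway: on its own it can recruit co-repressors, and with the cleaved Notch receptor and Mastermind it activates transcription. Medulla neuroblasts receive Notch signals as they divide, and the study mapped where Ey and Su(H) bind in the genome of these cells.

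Larvae of the Ey-Dam group carried UAS-Ey-Dam, those of the Su(H)-Dam group UAS-Su(H)-Dam and those of the control group UAS-Dam. In all groups the other elements of the genotype were UAS-Dcr2, tubG80ts over the balancer CyO, and SoxN-Gal4. All were kept at 29 °C for 72 hours to turn on the transgene, and optic lobes of larvae of the last instar, at the climbing stage, were pooled. There were 2 libraries for each transgene, 6 in all. SoxN-Gal4 set the cells in which a transgene was expressed, tubG80ts is a temperature-sensitive Gal80 that blocks Gal4 in the cold, and the protein mapped was an added Dam fusion and not the endogenous factor. The lists hold bound regions and no RNA, so the medulla neuroblast label could not be checked against markers.

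In DamID a bacterial methylase fused to the factor marks the A of GATC sequences near the places it binds, and only DNA cut at methylated GATC is amplified. A peak therefore runs from a GATC to a GATC and is made of whole GATC fragments. All 984 Ey and 972 Su(H) reproducible peaks began and ended at a GATC of the Release 6 genome (dm6). Each shared peak held at least 2 fragments, with medians of 7 in shared Ey peaks and 6 in shared Su(H) peaks.

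The ends of the shortest pair with identical ends, on chromosome 2L between 2181549 and 2181899, show how a common end looks in sequence. The stretches below run from 2181529 to 2181568 and from 2181880 to 2181919 on the forward strand, were read from the RefSeq Release 6 assembly like all sequences here, and have the GATC in capitals.
left end: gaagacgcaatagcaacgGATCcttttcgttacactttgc
right end: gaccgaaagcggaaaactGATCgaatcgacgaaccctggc
Both the Ey peak and the Su(H) peak of this pair were 351 bp long and held 3 fragments, in intergenic DNA within 1000 bp of lncRNA:CR43751.

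The 220 bp element cloned in the study from upstream of *slp1*, a temporal factor gene of the medulla, lies at chr2L:3817298-3817517, which is not annotated as coding. It is shown because it sits inside a shared region whose Ey and Su(H) peaks had the same ends, 3815895 and 3819392. The element began 1403 bp after the left end and ended 1875 bp before the right end. Capitals mark its 2 matches to a looser Su(H) consensus that the study used to search enhancers, which reads G or T, then TT, then C or T at both of the next positions, then CA, then A or C, then A, C or G.
slp element: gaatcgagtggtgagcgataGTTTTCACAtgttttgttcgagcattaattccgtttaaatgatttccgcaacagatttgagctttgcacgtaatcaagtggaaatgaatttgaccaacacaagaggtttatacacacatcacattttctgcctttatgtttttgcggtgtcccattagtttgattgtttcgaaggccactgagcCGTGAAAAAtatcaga
The stricter textbook Su(H) consensus had 0 matches in the element, and so did the Pax6 paired-domain consensus. The study allowed mismatches to its consensus forms and listed Ey sites and further Su(H) sites in the element. It reported that reporter expression was nearly lost when either listed Ey site was changed. Expression was lost when all listed Su(H) sites were mutated. It was strongly reduced when only the 2 sites in capitals were mutated, and was unchanged when the first of these alone was deleted.

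The textbook consensus was searched on both strands in its 4 forms CGTGAGAA, CGTGGGAA, TGTGAGAA and TGTGGGAA. A match read on the other strand also fits the looser form where G or T stands before it. Paired sites, in which matches on opposite strands stand 15 to 17 bases apart, are a known feature of E(spl) genes, the classical Notch targets that encode basic helix-loop-helix repressors. The 6 chromosome arms held 9 such pairs of textbook matches. Of these, 4 lay in shared regions, 3 in Su(H) peaks without an Ey peak, 0 in Ey peaks without Su(H) and 2 in no reproducible peak. The 4 in shared regions all lay in the E(spl) complex on 3R and are printed with the matches in capitals, at chr3R:25999545-25999601, chr3R:26002601-26002657, chr3R:26020739-26020795 and chr3R:26040004-26040060.
E(spl)mdelta-HLH and E(spl)mgamma-HLH: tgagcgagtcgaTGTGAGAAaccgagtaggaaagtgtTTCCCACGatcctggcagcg
lncRNA:CR45037: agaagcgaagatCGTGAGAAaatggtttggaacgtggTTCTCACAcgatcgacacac
E(spl)m3-HLH: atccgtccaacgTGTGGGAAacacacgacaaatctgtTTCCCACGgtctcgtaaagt
E(spl)m8-HLH: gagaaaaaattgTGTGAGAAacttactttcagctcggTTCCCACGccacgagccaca

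Most shared pairs were simple. In 566 pairs a single Ey peak met a single Su(H) peak. A further 18 Ey peaks had 2 Su(H) partners and 1 had 3, while 9 Su(H) peaks had 2 Ey partners. The Ey peak with 3 partners was 8916 bp long, lay between genes on 2R and took in Su(H) peaks of 2545, 3363 and 1984 bp. Of the Su(H) peaks that met 2 Ey peaks, 3 had shared regions that lay more than 1000 bp from any gene, and the shared regions of the others lay at or near *jing*, *CG14478*, *Nrt* (the adhesion protein Neurotactin), *cno* (the junction protein Canoe), *CG31191* and *E2f1*.

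The Ey peak was more often the longer of a pair than the Su(H) peak. Shared Ey peaks had a median length of 2139.5 bp (quartiles 1359 and 3197 bp) and shared Su(H) peaks one of 1822 bp (quartiles 1159 and 2767 bp). Ey peaks without Su(H) had a median of 1581 bp, and Su(H) peaks without Ey one of 1216 bp. The overlap that chose the shared peaks bears on their length, so these medians are a description. The Ey peak was longer in 275 pairs, the Su(H) peak in 99, and in 246 the lengths were equal.

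**Figure D1:**
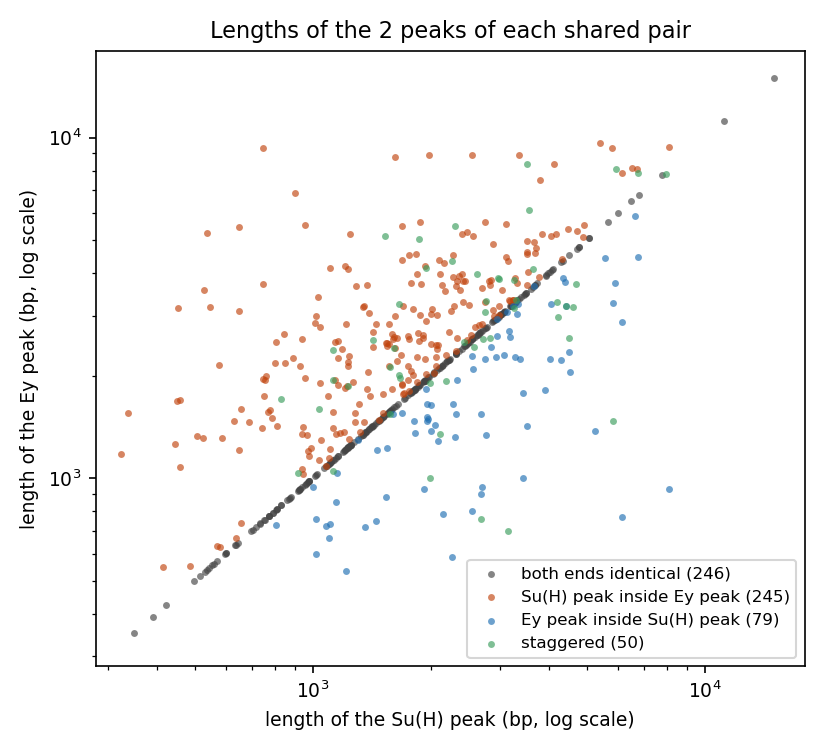
Length in bp of the Ey peak (vertical, log scale) against its Su(H) partner (horizontal, log scale) for the 620 shared pairs, 1 point a pair, coloured by arrangement. The 246 identical pairs lie on the diagonal, pairs with the Su(H) peak nested lie above it, and the longest pair, at *Raf*, had 15012 bp in both lists.

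In most pairs the Ey and Su(H) peaks had at least 1 end in common. Both ends were identical in 246 pairs (39.7%). The Su(H) peak was nested in the Ey peak in 245 pairs (39.5%), and the Ey peak in the Su(H) peak in 79 (12.7%). The last 50 pairs (8.06%) were staggered, each peak reaching past the other on 1 side. At least 1 end was identical in 523 pairs (84.4%), and the start and the end were each identical about as often, in 384 and 385 pairs. Of the nested pairs, 206 of the 245 with Su(H) inside and 71 of the 79 with Ey inside kept 1 common end. In peaks of replicate 1 alone, Su(H) was nested in 31.9% of pairs and Ey in 19.0%. In replicate 2 alone these shares were 29.6% and 17.6%.

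Where ends differed, they often differed by a single fragment. The 620 pairs have 1240 ends, of which 769 (62.0%) were identical and 226 differed by 1 GATC fragment, 75 by 2, 42 by 3 and 128 by more than 3, up to 26. In 405 pairs both ends lay at most 1 fragment apart. Of the 471 ends that differed, the Ey peak reached further at 334, by a median of 830 bp, and the Su(H) peak at 137, by a median of 527 bp. Peaks can end only at GATC, so short peaks have few possible ends. The share of identical pairs was lower where the 2 peaks together spanned more fragments. An end that differs itself adds fragments to that span, so this fall is partly built in and is a description. All 38 pairs whose 2 peaks together spanned 2 or 3 fragments were identical, against 83 of 140 (59.3%) at 4 to 5 fragments, 93 of 275 (33.8%) at 6 to 10 and 32 of 167 (19.2%) above 10.

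**Figure D2:**
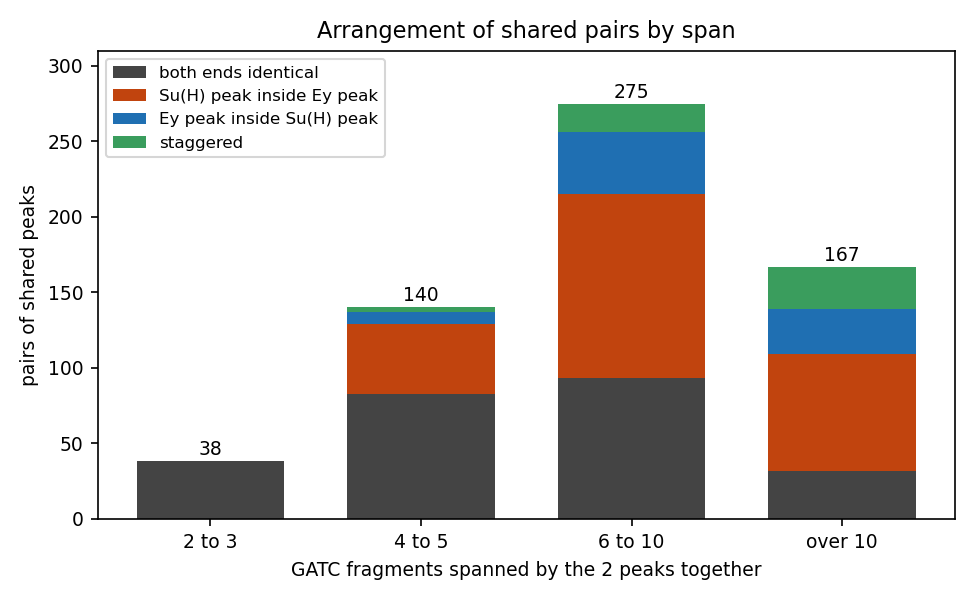
Number of shared pairs (vertical) by the number of GATC fragments that the Ey and Su(H) peaks span together (horizontal), with bars divided by arrangement and the total above each bar. Identical pairs make up all 38 pairs of 2 to 3 fragments and 32 of the 167 pairs above 10 fragments. An end that differs itself adds to the span.

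Among the reproducible peaks, which join replicate peaks, shared Ey peaks were less completely covered than shared Su(H) peaks. Su(H) peaks covered 82.0% of the bases in shared Ey peaks, and Ey peaks covered 93.1% of the bases in shared Su(H) peaks. Complete cover was found for 326 Ey peaks (54.3%) and for 491 Su(H) peaks (80.4%), and cover under 50% for 64 Ey peaks and 15 Su(H) peaks. The least covered were a 5239 bp Ey peak at *stx*, at 10.3%, and an 8131 bp Su(H) peak at *brat*, which encodes a translational repressor that limits neuroblast fate, at 11.4%. The shared regions measured 325 to 15012 bp, with a median of 1646 bp, and summed to 1226.7 kb, or 0.916% of the 6 arms.

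The reproducible lists join what the replicates called: where both replicates of the factor had an FDR 0.01 peak, 540 of 544 shared Ey peaks and 543 of 544 shared Su(H) peaks ran from the outermost start to the outermost end of their replicate peaks. A part of a shared peak outside its partner therefore lies, nearly by construction, outside the replicate peaks that formed the partner, and the values of such flanks are a description. Ey peaks left 313 flanks in 274 peaks, 269.1 kb in all. Ey peaks called at an FDR of 0.01 covered 82.2% of these bases in replicate 1 and 55.8% in replicate 2, while Su(H) peaks at that FDR covered 7.22% and 7.47%. Su(H) peaks left 128 flanks of 90.6 kb, of which Su(H) replicates 1 and 2 covered 71.7% and 88.4% and Ey replicates 1 and 2 covered 6.40% and 2.11%.

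Each replicate list at an FDR of 0.01 gives a peak score, which its peak caller formed from the log2 ratio of the fusion over Dam alone. The Ey-Dam lists had median scores of 5.14 in replicate 1 and 4.42 in replicate 2, the Su(H)-Dam lists 3.22 and 2.96, so scores are compared only within a list. Ey-Dam and Su(H)-Dam may also have been set against the same Dam libraries, so no correlation between their scores is given. The part of a common control in the overlap, and in the scores of 1 factor at peaks of the other, was not tested. A percentile gives the place of a score within its list. A peak in all 4 lists underlay 511 of the 600 shared Ey peaks (85.2%), against 64.3% of all reproducible Ey peaks. Of the 611 shared Su(H) peaks 514 (84.1%) were in all 4 lists, against 59.2% of all reproducible Su(H) peaks. The rule already asks for a peak of the other factor, so these shares describe the shared peaks and were not tested. Among Ey peaks without Su(H), 122 of 384 (31.8%) also met a peak in all 4 lists. Among Su(H) peaks without Ey, 61 of 361 (16.9%) did. Both sets lack a reproducible partner, but not always any peak of the other factor. For 8 shared Ey peaks no list held a peak, although their IDR call came from the same libraries at an FDR under 0.1.

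Shared Ey peaks had higher median scores than other Ey peaks, also in the Ey-Dam lists. Their median best score was 5.65 in Ey-Dam replicate 1 and 5.05 in replicate 2, against 5.34 and 4.595 for Ey peaks without Su(H). In the Su(H)-Dam lists it was 3.62 and 3.405, against 2.855 and 2.55 for the 178 and 158 Ey peaks without a reproducible Su(H) peak that had any peak there. For Su(H) peaks the median scores in the Su(H)-Dam lists were 3.62 and 3.38 for shared peaks and 3.40 and 3.23 for those without Ey. As percentiles, the medians in the factor's own lists were 71.7 and 76.2 for shared Ey peaks against 59.3 and 57.6 for Ey peaks without Su(H), and 73.3 and 72.9 for shared Su(H) peaks against 61.03 and 64.9 for Su(H) peaks without Ey. A best score is the highest of all replicate peaks met, and shared peaks were longer, so they could meet more. Length was not adjusted for. The ranges overlapped in every list: shared Ey peaks ran from 4.05 to 7.89 in Ey-Dam replicate 1, and Ey peaks without Su(H) from 3.76 to 7.82. The replicates were not on 1 level either, since replicate 1 exceeded replicate 2 in 420 of the 544 shared Ey peaks scored in both, by a median of 0.625 over all 544 (SD of the difference 0.72), and in 392 of 544 shared Su(H) peaks, by a median of 0.18 (SD 0.37).

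**Figure D3:**
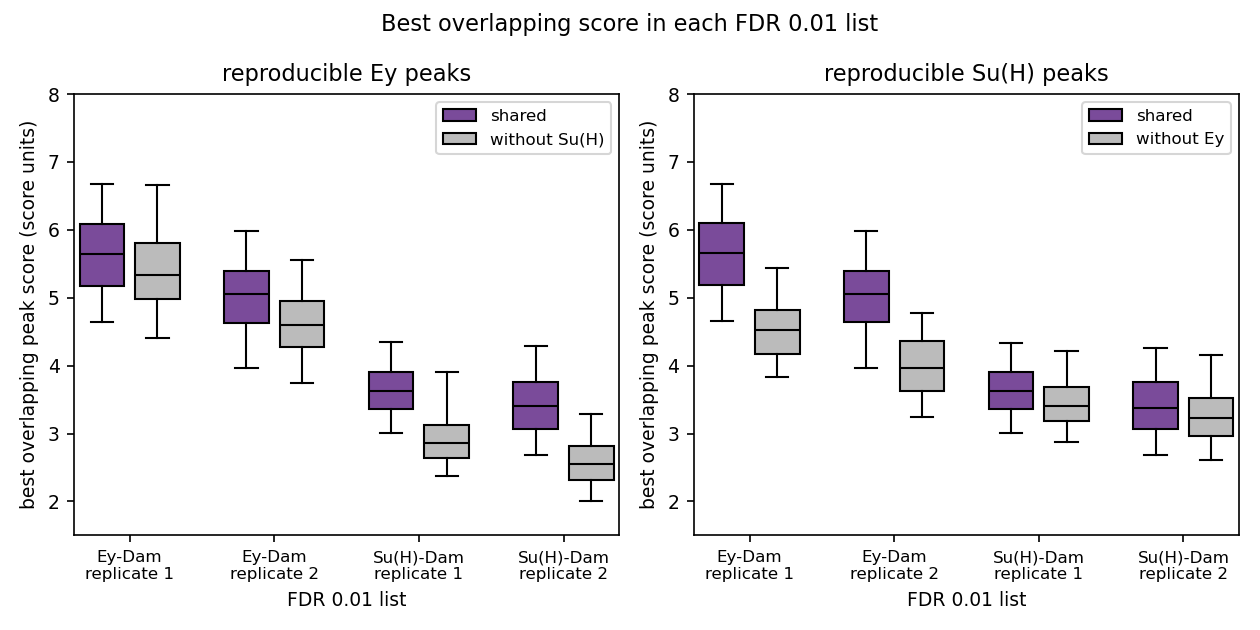
Best score of an overlapping peak in each of the 4 FDR 0.01 lists (vertical, score units; horizontal, the list) for reproducible Ey peaks (left panel) and Su(H) peaks (right panel), shared ones in purple and the others in grey. Boxes span the quartiles with the median as a line and whiskers reach the 5 and 95 percentiles; shared Ey peaks had medians of 5.65 and 5.05 in the Ey-Dam lists, Ey peaks without Su(H) 5.34 and 4.595.

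Against the whole FDR 0.01 lists, shared regions sat in the upper part. The median score percentile, over the pairs with a peak in the list, was 72.3 and 76.2 in Ey-Dam replicates 1 and 2, and 73.3 in each of the Su(H)-Dam replicates. All reproducible Ey peaks, shared or not, already had medians of 67.6 and 70.0 in the Ey-Dam lists. All reproducible Su(H) peaks had medians of 69.7 and 70.2 in the Su(H)-Dam lists. The shared regions were chosen from peaks called in these same libraries, so their place in the lists is a description. Of the 100 highest scoring peaks, 71 and 89 met a shared region in the Ey-Dam lists and 73 and 76 in the Su(H)-Dam lists, while of all peaks 39.7% and 37.9% and 39.5% and 38.8% did. By arrangement, the median percentiles in Ey-Dam replicates 1 and 2 were 72.7 and 73.8 for identical pairs, 74.6 and 79.3 for nested Su(H) peaks, 59.5 and 74.8 for nested Ey peaks and 71.7 and 74.8 for staggered pairs. In Su(H)-Dam replicates 1 and 2 they were 75.3 and 76.0 for identical pairs, 71.3 and 68.9 for nested Su(H) peaks, 77.3 and 78.4 for nested Ey peaks and 69.7 and 73.3 for staggered pairs. The lower value of nested Ey peaks in Ey-Dam replicate 1 was thus not seen in the other lists. Of the pairs of these arrangements, 83.7%, 84.1%, 86.1% and 82.0% were in all 4 lists.

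The shared region with the highest mean percentile over the 4 lists, 98.5, lay in an intron of *E2f1*, which encodes the E2F activator that drives entry into S phase, at chr3R:21642090-21645372. Its scores were 7.34 and 7.58 in Ey-Dam replicates 1 and 2 and 4.34 and 4.30 in Su(H)-Dam replicates 1 and 2. No other shared pair had a higher score in Ey-Dam replicate 2. The Ey peak of 3881 bp held the whole Su(H) peak of 3283 bp, and they had the same start.

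Next came a region mostly in introns of *Ets65A*, an ETS-domain transcription factor gene, at chr3L:6102486-6106220, with scores of 6.74 and 6.42 in Ey-Dam and 4.38 and 4.80 in Su(H)-Dam. Here the Ey peak of 3735 bp was nested in a Su(H) peak of 5898 bp. The identical pair with the highest mean percentile (97.5), at chr3L:18849740-18852972 near lncRNA:CR45388, scored 6.61 and 6.69 in Ey-Dam and 4.51 and 4.10 in Su(H)-Dam. An identical pair of 7792 bp within 1000 bp of *hng3* and of *emc*, which encodes an Id-type inhibitor of basic helix-loop-helix proteins, scored 7.17 and 6.05 in Ey-Dam and 4.24 and 3.94 in Su(H)-Dam. At *ph-d*, a Polycomb group gene, identical peaks of 1750 bp held a protein-coding start site and scored 7.19 and 5.42 in Ey-Dam and 5.04 and 4.28 in Su(H)-Dam, the highest Su(H)-Dam replicate 1 score of any shared pair.

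The rest of the 10 first regions lay at or near *CG5103*, *CG3841*, lncRNA:CR43621 and *CG4161*, and 1 lay between genes on 2R. The regions at *CG3841* and lncRNA:CR43621 belonged to the same Ey peak of 5138 bp and both scored 6.53 in Ey-Dam replicate 1. Of the 10 regions, 6 had a nested peak with 1 common end, 3 were identical and 1 was staggered. The identical pairs with the next highest mean percentiles lay between genes at chr3L:794797-798482 (95.7) and in an intron of *RapGAP1* at chr2L:7504866-7508800 (95.4).

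**Figure D4:**
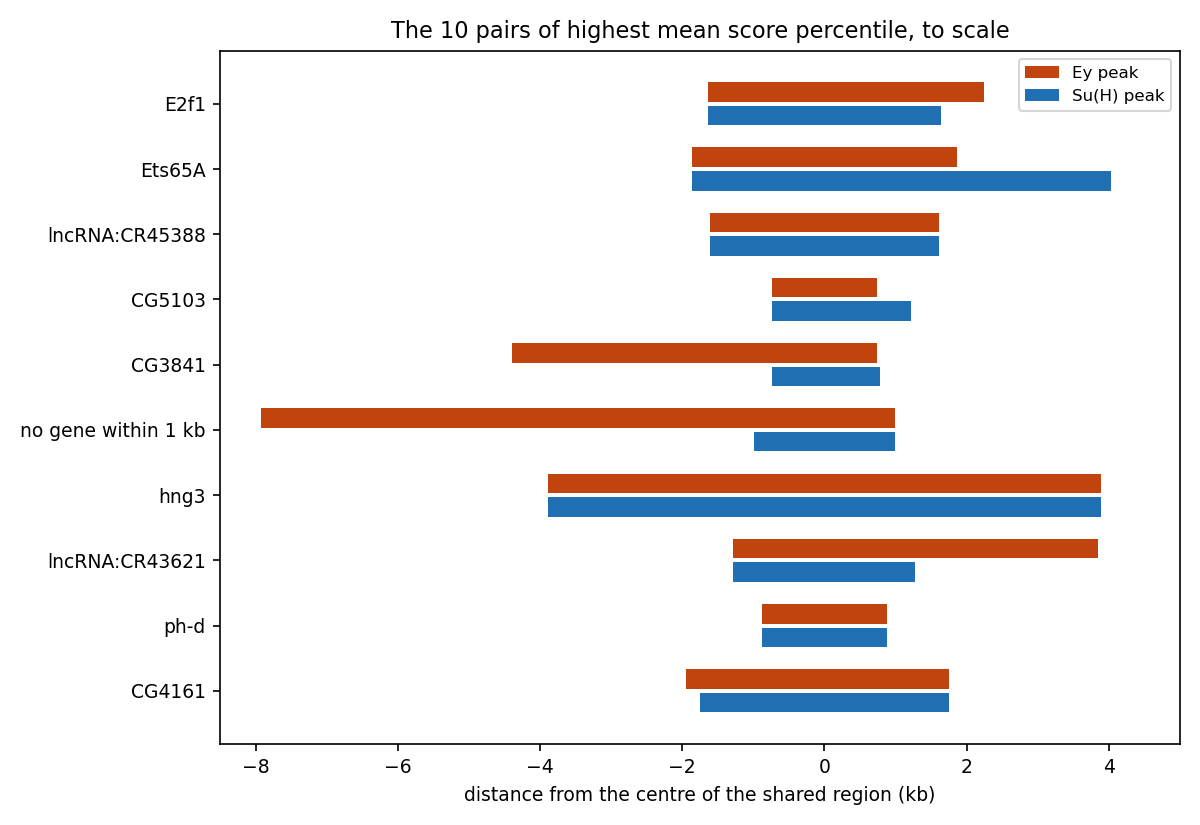
The Ey peak (orange) and Su(H) peak (blue) of the 10 shared pairs with the highest mean score percentile, drawn to scale by distance in kb from the centre of the shared region (horizontal), highest at the top. The Ey and Su(H) bars start or end together in most pairs, and the Ey peak of 8916 bp without a gene within 1 kb reaches furthest past its partner.

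Of the 10 first regions, 7 held a textbook Su(H) match, while 25.8% of all shared regions did. The 10 measured up to 7792 bp, against a median of 1646 bp over all shared regions, and longer regions have more room for a match. Su(H)-Dam scores were part of their choice, and no link of matches to scores was tested. Of the 7 regions with a match, 6 are printed. The capitals mark the match, and the stretches lie at chr3L:6104385-6104424, chr2L:9588288-9588327, chr3L:746111-746150, chr2L:9584665-9584704, chrX:2123942-2123981 and chr2L:15435708-15435747.
Ets65A: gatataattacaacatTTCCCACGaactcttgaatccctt
CG3841: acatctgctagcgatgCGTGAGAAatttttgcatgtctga
hng3: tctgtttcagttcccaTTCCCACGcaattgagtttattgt
lncRNA:CR43621: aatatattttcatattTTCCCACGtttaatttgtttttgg
ph-d: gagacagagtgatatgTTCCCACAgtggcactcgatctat
CG4161: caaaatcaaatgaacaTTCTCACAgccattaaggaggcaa
The leading region at *E2f1* had 0 textbook matches.

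The longest shared peaks were an identical pair at *Raf*, the kinase below Ras. The 15012 bp pair lay mostly in intron sequence and spanned 40 fragments, and an 11223 bp identical pair lay between genes on 3R. The other long Ey peaks, of 9658, 9378 and 9338 bp, lay near *Oli*, at *simj* and between genes on 2L. The other long Su(H) peaks, of 8131, 8095 and 7982 bp, lay at *brat* and *simj* and near *tap*, a proneural-type helix-loop-helix gene. At the other end, the smallest overlaps were 325 bp at *aus*, 338 bp downstream of *slp2* and the 351 bp pair already shown. Just outside the rule, an Ey peak on 3L met a Su(H) peak with a gap of 0 bp, an Ey peak at *Mur2B* and *br* lay 7 bp from a Su(H) peak, and one at *E2f1* lay 17 bp away. Of the 384 Ey peaks without Su(H), 32 lay 1 to 1000 bp from a Su(H) peak, 351 lay further, and the median gap was 20676 bp.

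The shared regions were spread over all 6 arms, from 3.61 per Mb on X to 5.59 per Mb on 3L. Of the X peaks 61.9% of Ey peaks but 49.4% of Su(H) peaks were shared, and on 2L 59.7% and 70.6%. Chromosome 4 held 6 shared Ey peaks and 7 shared Su(H) peaks, 4 of the pairs at *ey* itself. Identical pairs made up 37.9% to 43.5% of the pairs on each arm.

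Shared regions were mainly noncoding. By bases, 41.0% lay between genes, 46.6% in introns, 9.10% in noncoding exon sequence and 3.35% in coding sequence, against 30.5%, 42.7%, 9.76% and 17.1% of the 6 arms. In Ey peaks without Su(H) coding sequence took 4.93% of bases, and in Su(H) peaks without Ey 10.05%. A protein-coding transcript start lay in 114 shared regions (18.4%), in 104 Ey peaks without Su(H) (27.1%) and in 100 Su(H) peaks without Ey (27.7%). Windows tiled over the arms at the same lengths held one in 18.8%, 18.1% and 14.1% of cases. Shared regions were thus at the level of windows, and Ey peaks without Su(H) and Su(H) peaks without Ey were above it. The median distance from a shared region to the nearest start was 2710.5 bp, against 2080.5 bp for Ey peaks without Su(H) and 1394 bp for Su(H) peaks without Ey. The GC content of shared regions was 42.7%, against 42.2% of the arms.

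A textbook Su(H) match lay in 160 shared regions (25.8%), against 18.0% of windows of the same lengths. The share was 14.3% in Ey peaks without Su(H), against 17.1% of their windows, and 39.3% in Su(H) peaks without Ey, against 12.8%. Shared regions thus lay between Ey peaks without Su(H) and Su(H) peaks without Ey. Per kb there were 0.174 matches in shared regions, 0.0881 in Ey peaks without Su(H), 0.396 in Su(H) peaks without Ey and 0.106 on the arms. The looser consensus matched 74.2% of shared regions against 66.0% of windows, 62.2% of Ey peaks without Su(H) against 64.4%, and 67.3% of Su(H) peaks without Ey against 55.5%. A textbook match lay in 20 of the 50 regions of staggered pairs, against 16.9% of windows, and in 26.4% of those of identical pairs, against 18.9%. The share was 22.9% where the Su(H) peak was nested, against 17.4% of windows, and 24.1% where the Ey peak was nested, against 17.5%. Most shared regions with a match held few: 9 held 3 or more, among them those at *chinmo*, *neur*, *E(spl)m8-HLH* and *E(spl)mdelta-HLH*, and 1 region between genes on 2R held 10.

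**Figure D5:**
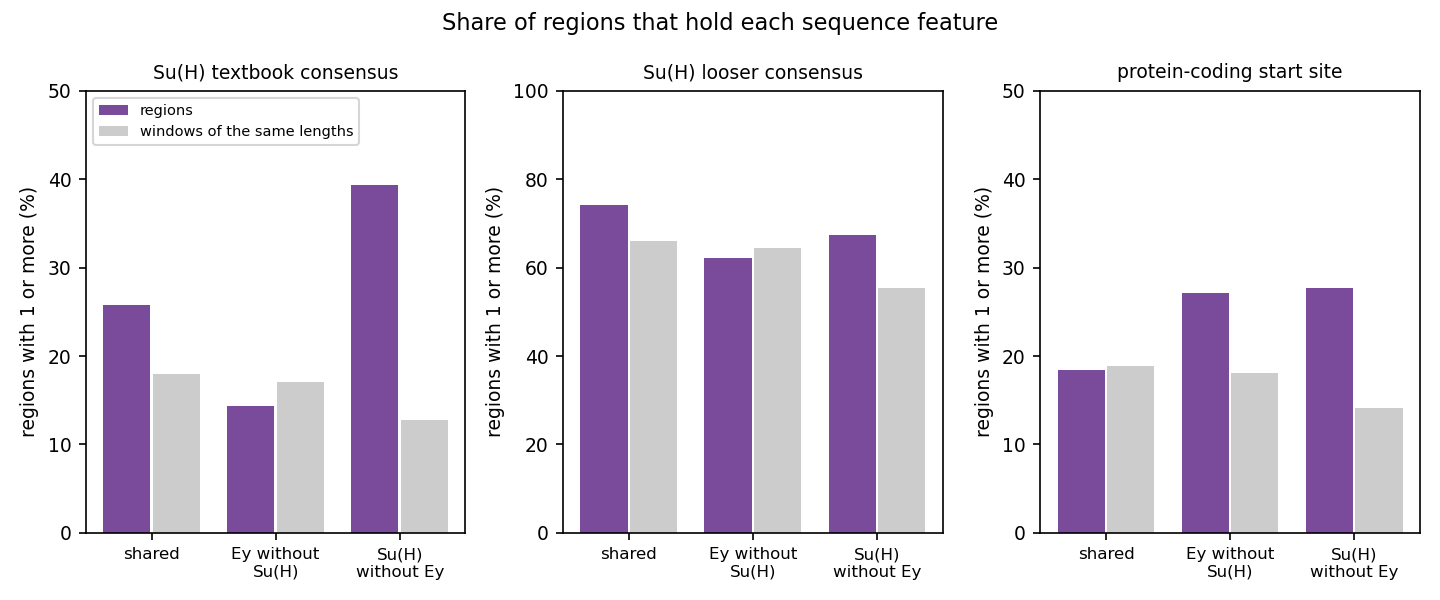
Percent of shared regions, Ey peaks without Su(H) and Su(H) peaks without Ey (horizontal) that hold at least 1 textbook Su(H) match, looser Su(H) match or protein-coding start site (purple), beside windows of the same lengths tiled over the 6 arms (grey). Textbook matches were in 25.8% of shared regions, 14.3% of Ey peaks without Su(H) and 39.3% of Su(H) peaks without Ey.

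The Pax6 paired-domain consensus from the literature is long and was rare in every set. It matched 7 shared regions (1.13%), 1.30% of Ey peaks without Su(H) and 0.554% of Su(H) peaks without Ey, against 1.06%, 1.00% and 0.712% of windows. With the form of the Ey consensus used in the study, 52 shared regions (8.39%) held a match, against 6.79% of windows. Only 3 shared regions held both a literature Ey match and a textbook Su(H) match. The Ey matches of 2 of them lie at chr3L:18295151-18295187 and chr3L:21284750-21284786 and are in capitals.
CG5103: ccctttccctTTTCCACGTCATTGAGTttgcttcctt
CG12974: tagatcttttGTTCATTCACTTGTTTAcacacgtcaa
The region at *CG5103* also held 4 textbook Su(H) matches, was an identical pair of 2951 bp and scored at a mean percentile of 88.1.

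Within 1000 bp of a shared region lay 577 of 18164 annotated genes (3.18%), 416 of them protein-coding, and 151 of the 620 regions (24.4%) had no gene that near. Long genes were met more often: 19.9% of protein-coding genes over 50000 bp had a shared region, 12.6% of those of 20000 to 50000 bp, 4.54% of those of 5000 to 20000 bp and 1.47% of shorter ones. The most regions fell at *jing*, a zinc finger gene (8 regions), *Cph* (7) and *E2f1* (5), and 24 genes had at least 3. The shares of gene lists below are descriptions to be read against the 3.18% of all genes and against these lengths.

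Medulla temporal factor genes had a shared region in 7 of 15 cases (46.7%, median gene length 5801 bp): *hth*, *ey*, *erm*, *opa*, *slp2*, *D* and *gcm*. At *D* (Dichaete, a Sox protein that follows the Slp stage), identical Ey and Su(H) peaks of 6004 bp lay 673 bp from the nearest start, with scores of 6.14 and 6.05 in Ey-Dam and 4.15 and 3.63 in Su(H)-Dam and 2 textbook Su(H) matches. At *hth* (Homothorax, expressed before Ey), a 747 bp Ey peak in an intron lay inside a 1449 bp Su(H) peak and scored 6.22 and 5.93 in Ey-Dam and 3.98 and 3.91 in Su(H)-Dam. *erm* (Earmuff) had 4 shared regions, of 1842, 1467, 3784 and 2319 bp. The one with the highest mean percentile, 20 bp from a start, scored 6.44 and 5.37 in Ey-Dam and 3.80 and 3.68 in Su(H)-Dam, while the 1467 bp one had no peak in Ey-Dam replicate 2. *opa* (Odd-paired) had 3 identical pairs of 4091, 3409 and 3196 bp, the first of which held a start.

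At *slp1* and *slp2*, the pair of forkhead genes that follow Ey in the cascade, 5 shared regions lay between 10000 bp left of *slp1* and 10000 bp right of *slp2*, among 8 Ey peaks and 6 Su(H) peaks of that window. The region that holds the 220 bp element scored 5.78 and 5.67 in Ey-Dam and 3.48 and 3.49 in Su(H)-Dam, percentiles of 76.3 and 93.9 and of 65.02 and 77.3. It was the longest of the 5 at 3498 bp. A 977 bp region left of *slp1* scored 5.71 and 5.22 in Ey-Dam and 3.61 and 3.29 in Su(H)-Dam, and an identical pair of 921 bp between the genes scored 5.10 and 4.38 in Ey-Dam and had no peak in Su(H)-Dam replicate 1. Right of *slp2* lay a staggered pair with 1933 bp in common and the 338 bp region, whose scores of 5.66 and 5.79 in Ey-Dam and 3.75 and 3.72 in Su(H)-Dam gave the highest mean percentile of the 5, 83.6. The 338 bp region overlaps the right end of the other *slp* enhancer of the study. In the study, the reporter of that enhancer was lost or delayed where Su(H) was knocked down. Mutation of Su(H) sites in that enhancer raised reporter expression, and the paper proposes that Notch does not activate it directly. None of the 5 held a textbook Su(H) match. Only *slp2* of the 2 genes lay within 1000 bp of a shared region.

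Genes of neuroblast identity, age and division had a shared region in 14 of 20 cases (70.0%, median length 29026 bp). At *chinmo*, a BTB zinc finger protein of young neuroblasts, an identical pair of 4305 bp held a start and 3 textbook Su(H) matches and scored 6.53 and 5.44 in Ey-Dam and 4.64 and 4.37 in Su(H)-Dam. *ham* (Hamlet) and *klu* (Klumpfuss), both zinc finger proteins, had a region each with mean percentiles of 90.6 and 89.95. *numb*, which encodes an inhibitor of Notch that is passed to 1 daughter cell, had 2 regions with 2 textbook matches in each. Its identical pair of 1934 bp scored 6.65 and 5.20 in Ey-Dam and 4.01 and 3.84 in Su(H)-Dam. The 6 list genes without a region were *wor*, *insc*, *grh*, *cas*, *svp* and *nab*.

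Of genes of the Notch receptor, its ligands and modifiers, 7 of 24 (29.2%, median length 9535 bp) had a shared region: *N*, *Delta*, *Ser*, *fng*, *numb*, *neur* and *bib*. At *Delta*, a ligand gene, 2 Su(H) peaks were each nested in an Ey peak with a common start. The 790 bp one, in an intron 955 bp from the nearest start, scored 5.51 and 5.11 in Ey-Dam and 4.52 and 4.93 in Su(H)-Dam, which put it at percentiles of 66.9 and 79.3 in the Ey-Dam lists and 98.6 and 99.8 in the Su(H)-Dam lists. The 2368 bp one scored 5.58 and 5.21 in Ey-Dam and 3.58 and 3.43 in Su(H)-Dam. At *N*, the receptor gene, a nested pair scored 5.82 and 5.40 in Ey-Dam and 3.57 and 3.58 in Su(H)-Dam, and an identical pair of 1102 bp scored 5.74 and 4.58 in Ey-Dam and 4.39 and 4.21 in Su(H)-Dam. *fng* (Fringe, a glycosyltransferase that modifies Notch) had a region over a start with scores of 5.85 and 5.93 in Ey-Dam and 3.66 and 4.04 in Su(H)-Dam. *Ser*, which encodes the ligand Serrate, had an identical pair of 1555 bp. The genes of Su(H) itself, Mastermind (*mam*) and Hairless (*H*, a co-repressor adaptor) had no reproducible peak of either factor within 1000 bp.

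In the E(spl) and Bearded families, short Notch target genes with a median length of 957 bp, 6 of 15 (40%) had a shared region, 7 an Ey peak and 13 a Su(H) peak. The 2450 bp identical pair within 1000 bp of both *E(spl)mdelta-HLH* and *E(spl)mgamma-HLH* scored 6.30 and 5.65 in Ey-Dam and 3.93 and 3.90 in Su(H)-Dam. At *E(spl)m3-HLH* the Ey peak of 1378 bp was nested in a Su(H) peak of 2002 bp, and its scores were 6.06 and 4.75 in Ey-Dam and 4.16 and 4.48 in Su(H)-Dam. At *E(spl)mbeta-HLH* an identical pair of 1254 bp scored 5.06 and 4.46 in Ey-Dam and 3.66 and 3.72 in Su(H)-Dam. *E(spl)m8-HLH* had a staggered pair and *Tom*, a Bearded family gene, an identical pair of 637 bp. Of these families, 7 members had a Su(H) peak but no shared region, among them *Brd*, whose Ey peak did not meet its Su(H) peak.

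Of 35 cell cycle genes, 10 (28.6%, median length 3280 bp) had a shared region. *E2f1* had 5 regions, and *CycE*, whose product drives the start of S phase, had 2 identical pairs of 4040 and 979 bp in introns. The longer scored 5.95 and 5.79 in Ey-Dam and 4.13 and 3.90 in Su(H)-Dam, and the shorter 6.05 and 5.74 in Ey-Dam and 3.59 and 3.55 in Su(H)-Dam. At *CycA*, a mitotic cyclin gene, an identical pair of 1103 bp scored 5.24 and 5.30 in Ey-Dam and 3.88 and 3.80 in Su(H)-Dam, and *pnut*, a septin gene, had a 2271 bp region with 3 textbook matches. *dap*, *CycG*, *fzr*, *fzy*, *pbl* and *trbl* were the others. At *stg*, the Cdc25 phosphatase gene, an Ey and a Su(H) peak lay 107 bp apart and were not shared.

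Retinal determination genes, which act with Ey in the eye, had a shared region in 5 of 13 cases (38.5%, median length 11247 bp). *Optix*, a sine oculis family gene, had the highest mean percentile (94.9), in an identical pair of 1914 bp on 2R that scored 6.03 and 6.33 in Ey-Dam and 4.45 and 4.52 in Su(H)-Dam. At *eya* (Eyes absent) 1 of 4 Ey peaks was shared, with scores of 5.65 and 5.72 in Ey-Dam and 3.79 and 3.96 in Su(H)-Dam. At *ey* itself lay 4 shared regions, and the one with the highest mean percentile (66.4) scored 5.02 and 4.26 in Ey-Dam and 3.93 and 3.86 in Su(H)-Dam. Coding sequence of *ey* is also part of the Ey-Dam transgene, and its part in these peaks was not tested. *hth* and *dan* were the other members, and *so*, *toy*, *dac*, *eyg*, *toe*, *tsh*, *tio* and *danr* had no shared region.

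In the EGFR and Ras pathway 6 of 21 genes (28.6%, median length 13265 bp) had a shared region: *Egfr*, the ligand gene *spi*, *S* (Star, needed for ligand processing), *pnt* (the ETS factor Pointed), *Raf* and the phosphatase gene *csw*. At *S* the scores were 5.68 and 4.78 in Ey-Dam and 3.92 and 3.80 in Su(H)-Dam, and at the 15012 bp pair of *Raf* 5.67 and 4.59 in Ey-Dam and 3.70 and 3.44 in Su(H)-Dam. The pair at *spi* was staggered and had only 369 bp in common, 14.3% of the Ey peak and 13.0% of the Su(H) peak. Genes of more than 1 list, such as *hth*, *ey*, *numb* and *pnt*, are counted in each.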

How the data were processed

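Reads were mapped by the authors with Bowtie2 (genome dm6, also named in the submitters' processing notes), and damidseq_pipeline gave normalised log2 ratios over Dam alone per GATC fragment. Its find_peaks tool called peaks per library at an FDR under 0.01, and the IDR tool kept reproducible peaks, called at an FDR under 0.1, at an IDR threshold of 0.05. The deposited lists give each peak a score, which the authors' tools computed, and neither reads nor depth, so no interval from counts could be formed. Which Dam library was set against which fusion is not given in the sources used here, and both factors may share controls. The 3 deposited lists of overlapping peaks were not used.

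Replicate starts were moved by 1 bp to match the reproducible lists. Peaks shared when they had 1 bp in common. Genes came from Ensembl release 115, without transposon insertions, and sequences from the RefSeq copy of Release 6. Motif shares were set beside all windows of the same length tiled over the 6 arms. Python 3.11.15, numpy 2.4.6 and pandas 2.3.3 were used, and the functions were checked on simulated peaks.

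The members and gene lists were chosen with earlier results of these data known. Named were the 10 pairs with the highest mean percentile over the 4 lists, the 5 first identical pairs, the peaks with most partners, the 5 longest peaks of each factor, the pairs at the edge of the rule, and up to 4 genes of each list by mean percentile. Other names, and all printed sequences, were chosen after their values were seen. Alternatives were other overlaps, the upper part of each list, single replicates, other consensus forms, other gene distances and protein-coding genes only.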

Additional observations from a re-analysis of the deposited data

How the results depend on the processing

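Of 97 alternative values, 60 stayed within the limits set for a count or a replicate spread and 37 moved, and none had a test. Keeping the upper 50% of each reproducible list by score left 267 shared Ey peaks (54.3%) and 270 shared Su(H) peaks (55.6%), 114 identical pairs, 106 with Su(H) nested, 35 with Ey nested, 18 staggered, 234 with at least 1 common end, median lengths of 2475 bp (Ey) and 1973 bp (Su(H)), 252 Ey peaks in all 4 lists, 81 regions with a Su(H) match, 3 with an Ey match and 252 genes. Without replicate 1 or 2, so from the other replicate's FDR 0.01 list, there were 993 to 1024 shared Ey peaks (67.6% to 67.9%), 1005 to 1029 shared Su(H) peaks (69.1% to 70.4%), 394 to 479 identical pairs, 309 to 326 with Su(H) nested, 184 to 194 with Ey nested, 71 to 109 staggered, 846 to 920 with a common end, median lengths of 1482.5 to 1742 bp (Ey) and 1447 to 1581 bp (Su(H)), 214 to 215 regions with a Su(H) match, 10 with an Ey match and 925 to 991 genes. Identical pairs stayed between 38.5% and 48.4% of pairs over all settings. An overlap of at least 50% of both peaks left 26 staggered pairs and a Su(H) median of 1928 bp. Requiring both own replicates, an alternative chosen after seeing the data, gave a Su(H) median of 1932.5 bp. The looser forms matched 460 regions for Su(H) and 52 for Ey, joined whole peaks held 13 Ey matches, and a gene distance of 5000 bp gave 1067 genes. The cause was not tested. No paired analysis was possible because the results come from no test. Read depth was not analysed here, so which peaks lacked a reproducible partner for want of reads is not known.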
